A study of Homo sapiens with 5 samples.

Results

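The transcriptional targets of Wnt and β-catenin signalling examined here are 10 genes, AXIN2, LGR5, ASCL2, NKD1, RNF43, ZNRF3, TCF7, LEF1, SP5 and NOTUM. They were read through H3K27ac, the acetylation of histone H3 at lysine 27 that marks active promoters and enhancers. A gene was assigned each H3K27ac peak whose center lay within 20 kb of the transcription start site (TSS) of any of its transcripts in GENCODE release 44 on GRCh38. By this rule 7 of the 10 genes had at least 1 peak and 3 had none, and the 7 genes held 26 of the 20087 peaks of the table. Peaks were assigned by gene names and positions only, not by the signal. The genes themselves were listed with earlier results of these data known.

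The measurements are ChIP-seq of HCT116 cells, a human colorectal carcinoma line, in a derivative with the auxin receptor osTIR1 under a CMV promoter and a degron-tagged cohesin subunit, RAD21-mAC. All cells carried both modifications and were kept in 0.1% DMSO for 6 h, then 2 libraries were made after 1 h of IFN-β at 1000 unit/ml and 2 from cells not further treated, with 1 input library as background. The sample titles place the control at 0 min and the IFN-β cells at 60 min, so 1 h of culture and the cytokine cannot be told apart. HCT116 is known to carry an activating mutation of CTNNB1, the gene of β-catenin, so the pathway is on without added ligand and no group has it off. Of 7 epithelial marker genes all 7 had a peak within 20 kb, with EPCAM at a log2 control level of 7.10, while of 9 markers of immune, fibroblast and endothelial cells PTPRC, CD3E, COL3A1, DCN and VWF had none. The other 4 did have one, COL1A1 at 5.24 (199 bp from its TSS), CDH5 at 4.96 and PECAM1 at 4.40 with peaks 13381 and 5016 bp from a TSS, and LYZ at 6.57 through a peak at the YEATS4 start. Among the epithelial markers, the CDH1 (4.89) and ELF3 (5.96) peaks lay 4491 and 4978 bp from a TSS. The KRT18 peak was nearest to a TSS of KRT8.

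In Wnt signalling, β-catenin that escapes its destruction complex enters the nucleus and joins the TCF/LEF proteins, which bind DNA at a core of CTTTGAT or CTTTGAA. Most genes of this set feed back on the pathway. AXIN2 is a scaffold of the destruction complex, RNF43 and ZNRF3 are ubiquitin ligases that remove frizzled receptors from the cell surface, NKD1 binds dishevelled, and NOTUM is a secreted enzyme that inactivates Wnt ligands. LGR5 and ASCL2 are a receptor and a transcription factor of intestinal stem cells, TCF7 and LEF1 are themselves TCF/LEF factors, and SP5 is a zinc finger transcription factor.

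The TCF/LEF core was found on either strand within 500 bp of the center in 15 of the 26 peaks, or 57.7%, whereas 20.9% of all 20087 peaks held it. The other 11 peaks, among them the only ASCL2 peak, had none. Some of the 28 sites are shown here. The 20 kb rule did not use these letters, but the genes were listed as targets of the pathway whose factors bind this core. The share with the core may therefore not be independent of that choice. The densest peak was that over the AXIN2 start, whose 5 sites include the following 3 outside annotated exons (GRCh38, 5′ to 3′ on the strand given, core in capitals, 10 flanking bases on either side).
AXIN2 promoter, chr17:65561400-65561426, plus strand: ggggggctttCTTTGAAgcggctccgc
AXIN2 promoter, chr17:65560770-65560796, minus strand: ggaccgcgcgCTTTGATgtgcggggcg
AXIN2 promoter, chr17:65560750-65560776, minus strand: cggggcggccCTTTGAAgttggcaggc

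Longer stretches are shown for the RNF43 and ZNRF3 intronic peaks in which 2 cores stand close together, and for the NOTUM upstream peak, each 127 bases long and free of annotated exons.
RNF43 intron, chr17:58403274-58403400, plus strand: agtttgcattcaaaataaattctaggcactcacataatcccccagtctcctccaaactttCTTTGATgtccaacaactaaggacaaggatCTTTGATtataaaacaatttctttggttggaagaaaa
ZNRF3 intron, chr22:28923956-28924082, minus strand: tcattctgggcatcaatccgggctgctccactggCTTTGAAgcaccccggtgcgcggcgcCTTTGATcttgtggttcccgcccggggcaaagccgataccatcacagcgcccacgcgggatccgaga
NOTUM upstream, chr17:81968067-81968193, minus strand: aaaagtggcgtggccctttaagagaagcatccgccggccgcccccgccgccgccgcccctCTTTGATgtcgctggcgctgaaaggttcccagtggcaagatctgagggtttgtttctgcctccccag

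The core is rich in A and T, and when all peaks were split into 10 deciles of GC content its share went from 45.8% in the AT-richest to 4.65% in the GC-richest. Averaged over the GC deciles to which the 26 peaks belong, the share of all peaks with the core was 26.0%. Of the 14 peaks outside RNF43, 8 held the core (57.1%), where the share for their GC deciles was 16.2%. At least 5 sites were found in 13 of the 20087 peaks, and the AXIN2 promoter peak was the 1 peak of the 1978 in the highest GC decile with 2 or more. A match of these letters describes the sequence and does not show that a factor is bound.

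Levels are log2 values of the mean normalized reads of a peak, the authors' deposited mean over the 2 libraries of a group, and the difference is the IFN-β value minus the control value. Values of single libraries are not part of the table, so an SD between replicates cannot be given and the groups were not tested against each other. The lowest values rise in steps of whole reads, from which relative library sizes of 1.47 and 1.54 with IFN-β and of 1.00 and 1.29 without were recovered. They gave approximate reads per peak and 95% intervals, exact Poisson for levels and Clopper-Pearson for differences, which cover counting error only. Summed over all peaks the normalized signal was 540427 with IFN-β and 876825 in the control, and the median difference of all peaks was -0.69. This offset runs through every value below, and its part in the members' differences was not tested.

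All 26 peaks had a lower value with IFN-β than in the control, with differences from -1.82 to -0.29 and a median of -0.82. The counting interval lay wholly below 0 in 19 of them, where 65.9% of all peaks had such an interval, and held 0 in 7. A difference under -1 was reached by 10 of the 26 peaks (38.5%), against 17.4% of all peaks. In each of the 10 the counting interval reached above -1, its upper end running from -0.95 (AXIN2 promoter) to 0.06 (ASCL2). A difference over 0 was reached by 0 of the 26, against 5.93% of all peaks. Set beside the median of all peaks, 15 lay below it, 10 above and 1 at it. The interval lay wholly below that median in 5 peaks (7.5% of all peaks) and wholly above it in 0 (8.08% of all peaks). The 5 were the AXIN2 promoter peak and intron peak, a weak RNF43 intronic element (58383048 to 58384048), the ZNRF3 promoter peak and the peak at the ASPSCR1 start near NOTUM. The ASPSCR1 interval (-1.27 to -0.77) holds the median of its own GC decile, -0.82, and the ZNRF3 promoter interval ends at that value. The intervals of the AXIN2 peaks and the RNF43 element lay below the medians of their GC deciles. More than 0.5 below the median of all peaks were 4 of the 26 (7.53% of all peaks), and more than 0.5 above it 0 (10.8% of all peaks). Of the 13 member peaks with a log2 control level of at least 5, 5 were under -1 (15.3% of all peaks at that level) and 1 was more than 0.5 below the median (3.82%).

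**Figure D1:**
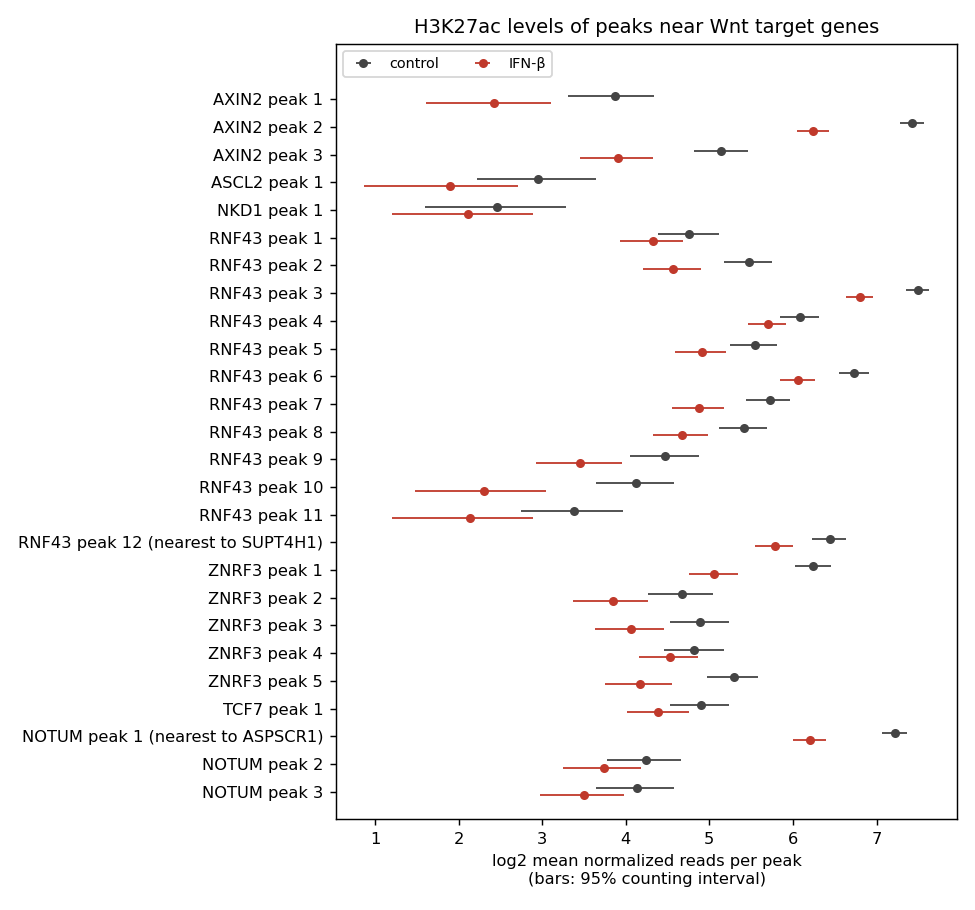
H3K27ac level of each of the 26 peaks near Wnt target genes, on the log2 scale of mean normalized reads, in control (dark) and IFN-β (red) cells, with 95% counting intervals as bars. The RNF43 and AXIN2 promoter peaks have the highest control levels, 7.49 and 7.43, and the NKD1 peak has the lowest, 2.46.

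**Figure D2:**
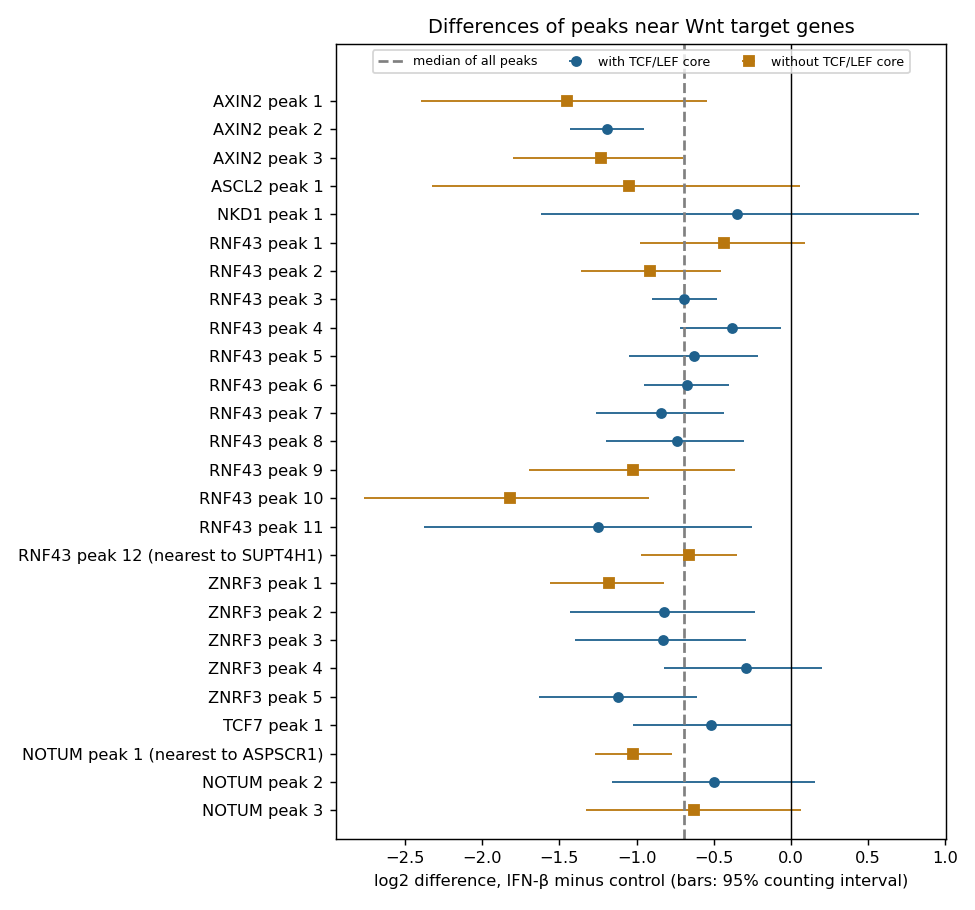
Log2 difference, IFN-β minus control, of each of the 26 peaks with its 95% counting interval as a bar, circles for peaks with a TCF/LEF core and squares for those without. All points lie left of 0, between -1.82 and -0.29, on both sides of the dashed line at the median of all peaks, -0.69.

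AXIN2, often used as a readout of β-catenin activity, had the lowest summed value with IFN-β relative to control among the genes with more than 1 peak. Its gene runs on the minus strand of chromosome 17 with its 5′ end at 65561648. The promoter peak (65560746 to 65561746, center in the first intron and 55 bp from the nearest TSS) had a log2 level of 7.43 in the control and 6.24 with IFN-β. These are 172 and 75.6 mean normalized reads, and about 394 and 227 reads recovered over both libraries of a group. The difference of -1.19 had an interval from -1.43 to -0.95, and 99.0% of all peaks had a lower control level. This peak is thus one of the best covered of the set, with a counting interval that does not reach the median of all peaks.

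The other AXIN2 peaks were weaker and showed differences of like size. An intronic peak 1976 bp wide (65556569 to 65558545) had 5.14 in the control and 3.91 with IFN-β, a difference of -1.23 (interval -1.80 to -0.70). A peak 2169 bp upstream of the gene (65563317 to 65564317) had 3.87 and 2.42, a difference of -1.45 (interval -2.40 to -0.54), from about 33 and 16 reads. Neither holds a TCF/LEF core within 500 bp of its center. Summed over the 3 peaks the difference was -1.21, with an interval from -1.43 to -1.0. Against the median of peaks in the same GC decile, the promoter peak was lower by 0.37 (that median being -0.82), the intronic peak's value was -0.64 and the upstream peak's -0.82.

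RNF43, the first of the receptor-removing ligases, had 12 peaks, the most of the set. Among 14035 protein-coding genes with a peak in reach 0.0784% had as many, 11 genes in all, and the median gene had 2. The 8 transcripts of RNF43 start at places far apart, which widens its reach, and its peaks spread over 77121 bp of chromosome 17. The peak at the main promoter (58416354 to 58417354, 741 bp downstream of the 5′ end at 58417595, in the 5′ part of the gene annotated as UTR) had 7.49 in the control and 6.80 with IFN-β. Its difference of -0.69 equals the median of all peaks (interval -0.90 to -0.48, about 411 and 335 reads). Its GC content was 37.9%, low for a promoter peak, since peaks within 1 kb of a protein-coding TSS had a median of 64.2%. The median difference of its GC decile was -0.47, just above the upper end of its interval. A neighbouring peak (58417584 to 58418584), centered 489 bp upstream of the 5′ end, had 5.47 in the control and 4.56 with IFN-β. Its difference was -0.91 (interval -1.36 to -0.45).

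The RNF43 introns hold a row of acetylated elements, 8 of the 12 peaks, all of them also within introns of the antisense gene TSPOAP1-AS1. The strongest (58394613 to 58395613) had a log2 level of 6.73 in the control and 6.06 with IFN-β, a difference of -0.67 with an interval from -0.95 to -0.40. The element with the paired cores printed above (58403063 to 58404063) had 6.08 and 5.70, and its difference of -0.38 (interval -0.72 to -0.06) was the smallest of this gene. At the other end of the range was the weak element at 58383048 to 58384048, with 4.12 and 2.30 and a difference of -1.82 (interval -2.77 to -0.92, about 40 and 15 reads). Only 0.921% of all peaks had a lower difference than this one, which holds no core.

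Summed over its 12 peaks, RNF43 had a difference of -0.70, with an interval from -0.81 to -0.59. This interval and that of AXIN2 do not overlap, while the spread between libraries behind either value is unknown. The RNF43 peaks had a median GC content of 40.8%, and the AXIN2 promoter peak had 74.9%. Relative to the medians of their GC deciles, the RNF43 promoter peak was at -0.22 and the AXIN2 promoter peak at -0.37. The part of base composition in the gap between the genes was not tested. The last of the 12 peaks (58352102 to 58353102) lies 179 bp from a TSS of SUPT4H1, a transcription elongation factor gene, and had 6.44 and 5.78. Another (58428223 to 58429223) lies 11128 bp upstream in an intron of HSF5 and had 4.76 and 4.33, a difference of -0.43 whose interval of -0.98 to 0.09 holds 0. For both, the 20 kb rule does not say which gene they serve.

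ZNRF3, the paralog of RNF43 on the plus strand of chromosome 22 (5′ end at 28883572), had 5 peaks. The promoter peak, 1795 bp wide (28882535 to 28884330), had a log2 level of 6.24 in the control and 5.06 with IFN-β. Its difference was -1.18, with an interval from -1.56 to -0.82 and about 173 and 100 reads. It had 75.2% GC and no TCF/LEF core near its center.

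All 4 of the intronic ZNRF3 peaks held 2 cores each. Going downstream, the first (28917439 to 28918439) had a log2 level of 4.67 in the control and 3.85 with IFN-β, a difference of -0.82. The second (28923810 to 28924810), printed above, had 4.89 and 4.06 with a difference of -0.83. The third (28977248 to 28978248) had 4.82 and 4.53, and its difference of -0.29 (interval -0.82 to 0.20) was the smallest of all 26. The fourth (29004565 to 29005565), which also holds an interferon-sensitive response element (ISRE) core, had 5.29 and 4.17 with a difference of -1.12 (interval -1.63 to -0.61). Thus 2 intronic elements of 1 gene with the same number of cores had intervals that overlap only between -0.82 and -0.61. Summed over the gene the difference was -0.91 (interval -1.13 to -0.70).

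**Figure D3:**
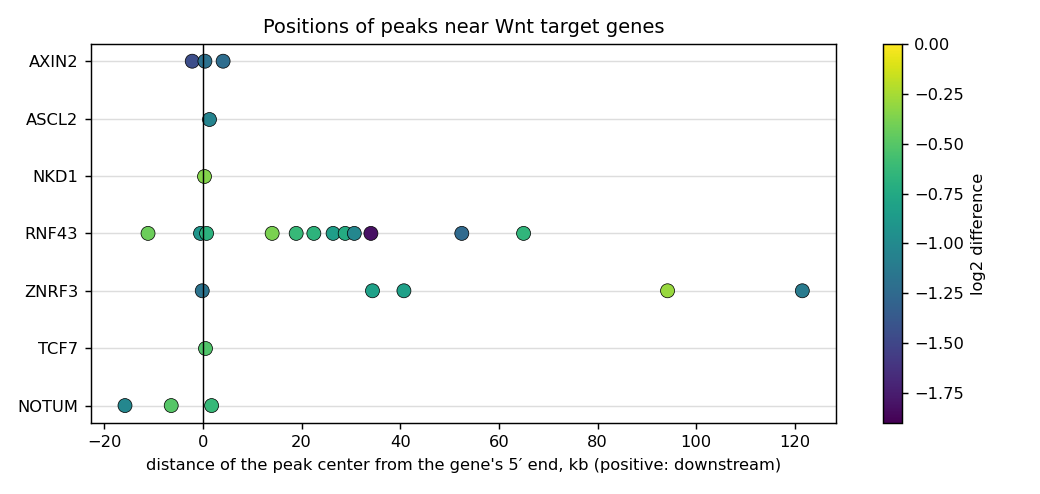
Position of each peak center relative to the 5′ end of its gene in kb, positive downstream, with 1 line per gene and the log2 difference as color. RNF43 and ZNRF3 carry peaks deep within their introns, the farthest ZNRF3 peak 121493 bp downstream, whereas TCF7, NKD1 and ASCL2 have 1 peak each near the start.

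TCF7, the TCF/LEF factor that is itself a target, had 1 peak over its start on chromosome 5 (134114607 to 134115607, center in coding sequence and 94 bp from a TSS). The log2 level was 4.90 in the control and 4.38 with IFN-β, a difference of -0.52 (interval -1.02 to 0.01, about 68 and 63 reads). The peak had 78.3% GC and held 1 core. LEF1, its relative, had no peak, and the nearest one lay 80739 bp from its closest TSS, by HADH on chromosome 4.

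Of the stem cell genes, 1 had a weak peak and 1 had none. ASCL2 had a single peak (chromosome 11, 2268940 to 2269940, in its intron) with a log2 level of 2.95 in the control and 1.90 with IFN-β. The difference of -1.05 rests on about 18 and 11 reads, and its interval from -2.33 to 0.06 holds 0. LGR5 had no peak, the nearest being 93211 bp from its closest TSS on chromosome 12, by THAP2. SP5 also had none within 20 kb, with the nearest 54775 bp away by ERICH2 on chromosome 2. The table has no value for regions outside its peaks, so for LGR5, LEF1 and SP5 it gives no level.

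The remaining inhibitors, NOTUM and NKD1, had weak peaks of their own. The NOTUM peak in its intron (chromosome 17, 81959584 to 81960584) had a log2 level of 4.13 in the control and 3.50 with IFN-β, a difference of -0.63 (interval -1.33 to 0.07). The peak 6426 bp upstream, printed above with a core, had 4.24 and 3.74, a difference of -0.50 (interval -1.16 to 0.16). The strongest peak in reach of NOTUM (81977137 to 81978137) had 7.22 and 6.20 but is centered 3 bp from a TSS of ASPSCR1, a tether of glucose transporter vesicles. NKD1 had 1 peak over its start on chromosome 16 (50548184 to 50549184) with 2.46 and 2.11. Its difference of -0.35 rests on about 13 reads in each group, with an interval from -1.62 to 0.83.

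Ordered by the control level of their strongest peak per kb, the genes ran RNF43 (7.49), AXIN2 (7.43), NOTUM (7.22, at the ASPSCR1 start), ZNRF3 (5.40), TCF7 (4.90), ASCL2 (2.95) and NKD1 (2.46). The counting intervals of neighbours overlapped for RNF43 and AXIN2, AXIN2 and NOTUM, ZNRF3 and TCF7, and ASCL2 and NKD1. They did not overlap between NOTUM and ZNRF3 or between TCF7 and ASCL2, so the levels formed a high, a middle and a low group. NOTUM stood in the high group only through the ASPSCR1 peak. Its own peaks had 4.24 (interval 3.77 to 4.66) and 4.13 (3.64 to 4.58), where TCF7 had 4.90 (4.53 to 5.24).

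The distance limit separated peaks as follows. Just inside lay the weak RNF43 element at 19173 bp (-1.82) and the last ZNRF3 element at 18013 bp (-1.12). Just outside lay the peak at the PYCR1 start, 22795 bp from NOTUM, with a log2 level of 7.41 in the control, 6.34 with IFN-β and a difference of -1.07. Farther out, 39959 bp from an NKD1 TSS and nearest to SNX20, a peak at 50664684 to 50665684 on chromosome 16 had 1.41 in the control and 3.32 with IFN-β. Its difference of 1.91 (interval 0.64 to 3.48) rests on about 6 and 30 reads, and it was the 1 peak within 50 kb of the 10 genes with a difference above 0.

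Promoter and distal peaks were compared as groups. The 11 peaks within 1 kb of any protein-coding TSS, the ASPSCR1 and SUPT4H1 promoter peaks included, had a median difference of -0.69, and all peaks so placed had -0.75. The 15 peaks farther than 1 kb from any such TSS had a median of -0.84, where all such peaks had -0.57. Most of these 15 were RNF43 peaks, so the genes do not weigh equally in that median. Differences in the whole table went with base composition, from a median of -0.47 in the lowest GC decile to -0.82 in the highest. Relative to the median of their own GC decile, the 26 peaks had a median of -0.23 and 8 of them were above it. Peaks with a TCF/LEF core had a median difference of -0.69 (15 peaks) and those without -1.02 (11 peaks), against -0.62 and -0.71 over all peaks.

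**Figure D4:**
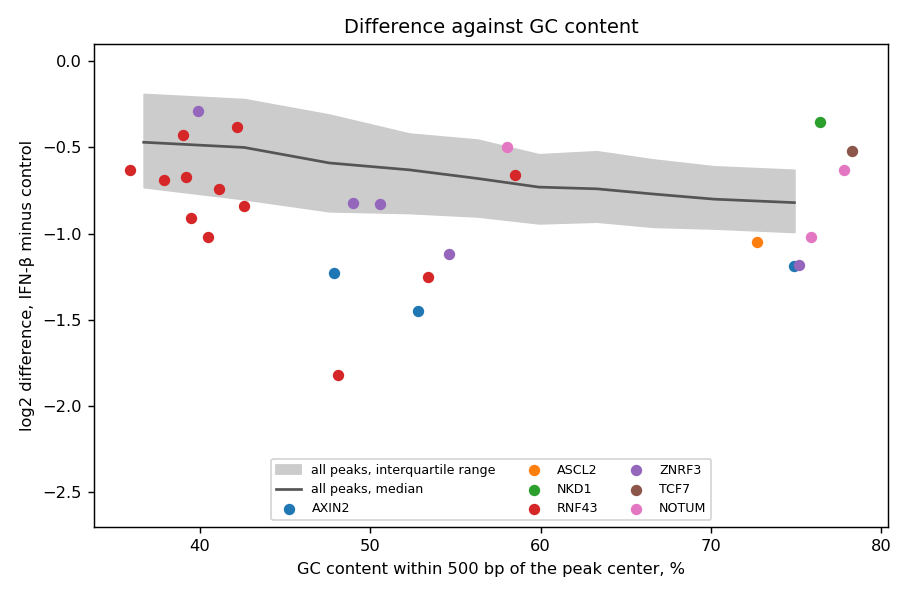
Log2 difference, IFN-β minus control, against GC content within 500 bp of the peak center in percent. The band and line give the interquartile range and the median of all 20087 peaks in 10 parts of GC content, falling from -0.47 to -0.82, and colored points are the 26 peaks by gene, 18 of them below the median of their part.

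The ISRE core (GAAA, 2 free bases, GAAA), at which interferon-activated factors bind, was found in 3 of the 26 peaks (11.5%) and in 11.6% of all peaks. They were an RNF43 intronic element with a difference of -1.02, the SUPT4H1 promoter peak with -0.66 and the fourth intronic ZNRF3 peak with -1.12. The ZNRF3 peak is shown because it holds both kinds of core, the ISRE core at chr22:29004903-29004912 and a TCF/LEF core at chr22:29004771-29004777.
ZNRF3 ISRE core, chr22:29004893-29004922, plus strand: cttcgggaatGAAAAGGAAAccccgtgaac
ZNRF3 TCF/LEF core, chr22:29004761-29004787, plus strand: gtggcggctcCTTTGATcacctcccgc

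The rest of the pathway was read at the strongest peak within 20 kb of each gene. Over the 14035 protein-coding genes with such a peak, 70.2% of 20007, the median difference was -0.77, with 17.8% under -1 and 1.99% over 0. On this scale the 7 target genes had a median of -1.02 with 4 under -1 and 0 over 0. That median is the value of the ASPSCR1 promoter peak, which stands for NOTUM here. With peaks nearest to the gene itself the median of the 7 was -0.69, with 3 under -1, namely AXIN2, ZNRF3 and ASCL2.

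On the ligand side, 10 of 19 WNT genes had a peak, with a median difference of -0.50 and 3 under -1. The WNT5B, WNT10B and WNT1 peaks lie nearest to a TSS of another gene (FBXL14, ARF3 and WNT10B). WNT3 had the highest control level, 6.67, with 6.14 after IFN-β, WNT6 the highest difference (-0.23) and WNT9A the lowest (-1.48, interval -2.00 to -0.96). None of the 4 R-spondin genes, whose products bind LGR5 and its relatives, had a peak in reach. Of the genes for ligand secretion, PORCN, which acylates Wnt proteins, had 4.69 and 3.17 and a difference of -1.52, and WLS, their carrier, had a difference of -0.54.

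Among receptor genes 13 of 17 had a peak, with a median of -0.98 and 4 under -1. The LRP5 and FZD3 peaks lie nearest to a TSS of another gene (PPP6R3 and FBXO16). FZD6 had the highest control level, 6.99, LRP6 the highest difference, -0.60, and FZD4 the lowest, -1.25. Of 14 inhibitor genes 6 had a peak, with a median of -0.99 and 2 under -1. KREMEN2, a receptor for DKK proteins, had the highest control level (7.14), and SFRP4, a secreted frizzled-like protein, the lowest difference (-1.18). These peaks lie 13 bp from a TSS of PKMYT1 and 237 bp from a TSS of EPDR1. The SOST and DKK4 peaks likewise lie 280 bp from a TSS of DUSP3 and 147 bp from a TSS of VDAC3. Within 5 kb the list median was -0.78. DKK1, a secreted antagonist of the LRP coreceptors and also a Wnt target, had 6.48 in the control and 6.43 with IFN-β. Its difference of -0.05 (interval -0.32 to 0.22, about 204 and 259 reads) was the highest of the list, and its interval lies above the median of all peaks.

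Inside the cell, the 3 dishevelled genes had differences from -1.09 (DVL2) to -0.96 (DVL3), and DVL1 the highest control level, 7.07. The DVL2 peak lies 70 bp from a TSS of PHF23 and the DVL3 peak 398 bp from one of AP2M1, and within 5 kb the list median of -1.07 became -0.66. All 10 destruction complex genes had a peak, with a median of -0.90 and 4 under -1, from GSK3A (control level 7.61, difference -1.15) to BTRC, the ubiquitin ligase subunit that recognises β-catenin (-0.50). The GSK3A peak lies 8 bp from a TSS of ERF, a transcriptional repressor. The CSNK1A1 peak is also nearest to another gene, 10299 bp from a TSS of ARHGEF37. Of 11 nuclear partners 9 had a peak, with a median of -0.83 and 1 under -1, between TLE3, a corepressor (-1.05), and TCF7L1 (-0.38). The TLE2 peak lies 16 bp from a TSS of TLE5.

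TCF7L2, the main TCF/LEF factor of the intestine, had the highest control level of any of the 20087 peaks. The peak (chromosome 10, 112951935 to 112952935, centered 1519 bp from a TSS) had a log2 level of 8.45 in the control and 7.45 with IFN-β. Its difference was -1.0 with an interval from -1.16 to -0.84, from about 799 and 525 reads.

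Another 14 genes known as Wnt targets were read in the same way, and 9 had a peak, with a median of -0.62, 1 under -1 and 1 over 0. CD44, a cell adhesion receptor, had the highest control level (6.90) and a difference of -0.97. SOX9, a transcription factor of the crypt base, had the lowest difference, -1.15 (interval -1.56 to -0.74). TNFRSF19 had the highest, 0.57, from a weak peak of 2.24 in the control whose interval from -0.58 to 1.74 holds 0.

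Comparison lists of 2 other kinds of genes were set beside these. All 12 RAS-ERK feedback genes had a peak, with a median of -0.70 and 0 under -1, from SPRY1 (-0.93) to DUSP5 (-0.28), and DUSP6 had the highest control level, 7.27. Of 15 intestinal transcription factors 10 had a peak, with a median of -0.83 and 3 under -1. KLF5 had the highest difference, 0.02, and FOXA3 the highest control level, 6.18. As a check of the stimulus, 9 of 10 interferon-stimulated genes had a peak, with a median of 0.00, 4 over 0 and 0 under -1. This list too was chosen with earlier results of these data known. Of the 4, IFIT3 had 0.05 with an interval (-0.38 to 0.48) that holds 0. The IFI6 and IFIT2 peaks lie 12359 and 5283 bp from a TSS, and the IRF9 peak lies 2 bp from a TSS of EMC9. IFIT1 was highest with 4.06 in the control and 5.65 with IFN-β, a difference of 1.59, and at the strongest peak of ISG15 the difference was -0.53. The lists of this and the preceding paragraphs are small, and no test between them was run.

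**Figure D5:**
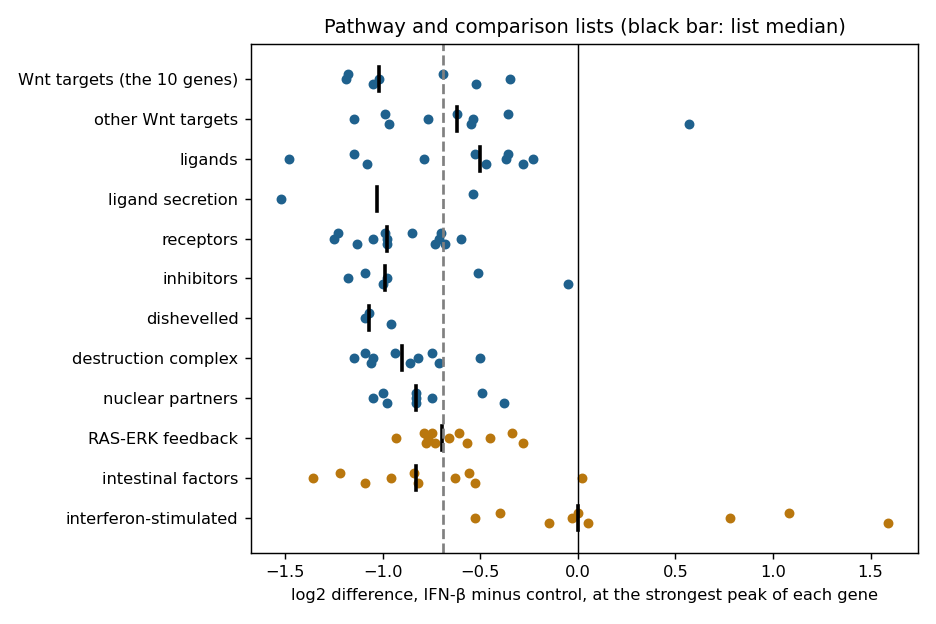
Log2 difference, IFN-β minus control, at the strongest peak of each gene, 1 point per gene and 1 line per list, with a black bar at the list median and a dashed line at the median of all peaks, -0.69. All Wnt lists but dishevelled, which lies left of the dashed line, have points on both sides of it. The medians of the Wnt lists lie between -1.07 (dishevelled, -0.66 within 5 kb) and -0.50 (ligands). The interferon-stimulated genes lie to the right of the dashed line.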

How the data were processed

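The authors made 4 H3K27ac ChIP-seq libraries from HCT116 cells and 1 input library. The submitters' processing notes name bcl2fastq 2.17, fastp 0.19.3, Bowtie2 2.25, SAMtools, MACS2, DiffBind and DESeq2. The authors trimmed and aligned reads to GRCh38 with bowtie2, called peaks per library with MACS2 against the input, and counted reads in them with DiffBind. The log2 values used here are the authors' deposited means over the 2 libraries of each group, of normalized reads. Their columns of fold changes, p-values and FDR hold the authors' comparison and were not used. Neither group was tested, as no column holds 1 library.

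All 39 sequence names matched the reference. Annotation was GENCODE release 44. Peak coordinates are as deposited. Analyses used Python 3.11.15, numpy 2.4.6, pandas 2.3.3 and scipy 1.17.1, and figures matplotlib 3.10.9. Reads per group were taken as the normalized mean times the summed relative library sizes, which reached 100% of 760 low IFN-β values and 99.5% of 589 low control values to 2 decimals. The authors state that DiffBind controlled for input coverage when peaks were assembled; whether input was subtracted from the counts is not given in the sources used here. The procedure was tested on simulated Poisson counts, without input subtraction or a spread between replicates. That test does not cover either of these. Motifs were searched on both strands within 500 bp of the center, overlaps allowed. A call means a log2 difference under -1, over 0, or more than 0.5 from the median of all peaks.

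Members and lists were chosen with earlier results of these data known. Named are all 10 genes with their peaks and, per list, the gene with the highest control level and those with the highest and lowest difference at the strongest peak among genes with at least 20 recovered reads in both groups together. TCF7L2, KLF5 and DKK1 fall under this rule. The lowest difference of the intestinal list and 1 sequence are not reported here. The peak near SNX20 was named after its value was seen. Alternatives changed the distance, the TSS used, the peaks included, the centring, the unit and the motif.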

Additional observations from a re-analysis of the deposited data

How the results depend on the processing

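No paired analysis was possible because the deposited columns hold means over both libraries of a group, and for the same reason no library could be left out. The number of genes with a peak stayed at 7 within 5 kb, within 50 kb, from the gene's 5′ end and with peaks nearest to the gene, and was 4 with peaks of a log2 control level of at least 5. The median difference of -0.82 became -0.69 with the gene's 5′ end, -1.02 at the strongest peak per gene, -0.91 with reads summed per gene, -0.93 without the RNF43 peaks, and -0.69 at the strongest peak per gene among peaks nearest to it, the last 2 being alternatives chosen after seeing the data. Centred on the median of all peaks it was -0.14, within GC deciles -0.23 and within control-level deciles -0.14, and then 10, 8 and 11 of the 26 peaks lay above 0. Peaks under -1 numbered 6 within 5 kb and 5 at the higher control level, where 1 lay more than 0.5 below the median of all peaks. Within 50 kb 1 peak lay over 0 and 1 more than 0.5 above that median. The TCF/LEF core was in 8 peaks (30.8%, and 10.3% of all peaks) within 250 bp and in 8 without RNF43. Within 5 kb the list medians became -0.85 for receptors, -0.78 for inhibitors, -0.66 for dishevelled, -0.68 for intestinal factors and 0.78 for interferon-stimulated genes. The causes were not tested. With few reads, as for NKD1 and ASCL2, differences of this size were not detectable.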
